A study of Mus musculus with 16 samples.

Results

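The endocrine cells of the stomach corpus were followed through 8 genes chosen by name, out of 24964 genes in the count table. Hdc, Slc18a2, Chga, Chgb, Slc18a1, Ghrl, Sst and Cckbr were all present in the table, and all 8 passed the filter on low counts. The rule names them without a threshold on any measured value, and they were chosen with earlier results of these data known. Expression was measured by RNA sequencing in 16 libraries from the stomach of female mice aged 8 weeks, each made from a 4 mm piece of the lesser curvature of the corpus. WT mice were C57BL/6. TTP mice were congenic C57BL/6 of genotype TTPΔARE, in which the AU-rich element is missing from the Zfp36 transcript, the mRNA of tristetraprolin (TTP), an RNA-binding protein that shortens the life of AU-rich mRNAs. In both genotypes A names adrenalectomy (ADX), which the label ties to gastric inflammation, and S names a group whose treatment label reads SPEM, a metaplastic mucous lineage of the corpus. The labels leave out whether S mice were operated on, and S serves here as a group name. Each of the 4 groups (WT-S and WT-A, TTP-S and TTP-A) held 4 libraries. The labels name no other allele, strain or treatment. Nothing in the labels says that the 4 libraries of a group came from separate mice, so the p-values measure the spread between these samples, which may be technical.

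Endocrine cells are thinly scattered through the corpus glands. Enterochromaffin-like (ECL) cells bind gastrin from the antrum through the receptor encoded by Cckbr, make histamine with histidine decarboxylase (Hdc), load it into granules with the vesicular monoamine transporter VMAT2 (Slc18a2) and release it to drive acid secretion by parietal cells. X/A-like cells make the appetite hormone ghrelin (Ghrl), and D cells make somatostatin (Sst), which restrains ECL and parietal cells. Chromogranins A and B (Chga and Chgb) are granule proteins shared by many endocrine cells, and VMAT1 (Slc18a1) is the transporter of serotonin-making enterochromaffin cells. Hdc and Slc18a2 are also used by mast cells, Slc18a2 also by monoamine neurons, and Cckbr is also found on parietal cells, so markers of those cells were measured beside them.

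Sequence around the genes is shown first for those on which the comparisons turn. Promoter sequence of GRCm38.p6 was taken from RefSeq, which matched 7 of the 8 genes and gave 4 start sites for Ghrl. The 250 bases before each start were searched on both strands for 5 motifs, none of which overlapped another in these genes. Positions are counted from the start, with the base just before it as -1, and mark the motif's first base. Hdc and Slc18a2, the genes of histamine synthesis and storage, both held the half-site of the glucocorticoid receptor, AGAACA. Both also held the GC box, a motif of Sp-type transcription factors that reads GGGCGG. A motif on the other strand stands in the sequence as its reverse complement. Capitals mark these matches in the windows chr2:126618679-126618928 (minus strand) and chr19:59260628-59260877 (plus strand).
Hdc promoter: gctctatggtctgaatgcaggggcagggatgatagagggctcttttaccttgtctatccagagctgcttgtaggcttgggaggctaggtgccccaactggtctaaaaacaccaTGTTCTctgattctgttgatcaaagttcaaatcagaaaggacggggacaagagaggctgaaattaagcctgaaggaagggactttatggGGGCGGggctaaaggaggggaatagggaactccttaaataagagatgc
Slc18a2 promoter: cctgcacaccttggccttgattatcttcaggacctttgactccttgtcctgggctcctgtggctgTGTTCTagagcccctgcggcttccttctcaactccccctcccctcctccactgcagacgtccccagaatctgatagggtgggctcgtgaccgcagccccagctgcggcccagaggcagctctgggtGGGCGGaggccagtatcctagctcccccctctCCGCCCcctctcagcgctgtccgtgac
The half-site began at -137 in Hdc, at -185 in Slc18a2 and at -122 before 1 of the 4 Ghrl starts, and 16.1% of 32851 promoter windows of this length held it. GC boxes began at -48 in Hdc, at -59 and -27 in Slc18a2, at -90 and -55 in Chga and at -104 and -44 in Chgb, and 32.7% of windows held one. Such a match describes letters and is not a binding site.

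The cAMP response element was searched for only as TGACGTCA, and not in variants such as TGACGTAA, which the Chga window held. TGACGTCA stood before Sst at -48 and before Chgb at -72. It occurred in 1.55% of the windows, the smallest share of the 5 motifs. These windows are shown for that shared element, at chr16:23890845-23891094 (minus strand) and chr2:132781392-132781641 (plus strand), with the element and, for Chgb, the GC boxes in capitals.
Sst promoter: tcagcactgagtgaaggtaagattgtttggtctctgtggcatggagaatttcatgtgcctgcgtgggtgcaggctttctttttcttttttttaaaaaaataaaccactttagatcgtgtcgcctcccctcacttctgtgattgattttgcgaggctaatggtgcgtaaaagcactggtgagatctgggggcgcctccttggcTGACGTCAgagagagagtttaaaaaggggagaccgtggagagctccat
Chgb promoter: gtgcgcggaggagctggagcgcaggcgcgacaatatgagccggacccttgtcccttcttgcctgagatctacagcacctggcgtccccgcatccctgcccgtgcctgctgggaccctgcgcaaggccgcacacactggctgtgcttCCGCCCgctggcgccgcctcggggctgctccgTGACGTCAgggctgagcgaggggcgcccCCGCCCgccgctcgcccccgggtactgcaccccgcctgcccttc
None of the 7 genes with a window held the E-box CAGATG, which 14.4% of all windows held on either strand, or the TATA box, which reads TATAAA and was found in 12.4%, which says only that these letters were not there.

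Because TTP binds AU-rich sequence, the 3′ UTRs of the 8 genes were searched in GENCODE vM21 gene models for TATTTAT, for its longer form TTATTTATT, and for the short ATTTA, on the mRNA strand. Slc18a2 was the only 1 of the 8 with TATTTAT, which began at base 510 of its 3′ UTR of 2096 bases. It is printed because Slc18a2 was also the only 1 of the 8 called between genotypes, and capitals mark the 7-base motif.
Slc18a2 3′ UTR site: taataccaatgTATTTATgagttaaaagc
Of 20566 3′ UTRs, 25.5% held TATTTAT, 6.92% held TTATTTATT and 61.7% held ATTTA. These shares were not matched for length, and the 3′ UTR of Slc18a2 was the longest of the 8, with that of Slc18a1 next at 1084 bases. A match describes letters, and an effect of TTP on Slc18a2 mRNA was not tested. No member held TTATTTATT. ATTTA, which also lies within each longer motif, was counted 4 times in Slc18a2, 3 times in Chgb and 1 time in Slc18a1. Zfp36 itself held TATTTAT 3 times in the reference model, which carries the element that the TTPΔARE allele lacks.

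Depth was similar across groups, from 17453930 to 25849472 counts per library, of which the 8 genes took 0.200% to 0.334%. Zfp36, the altered gene, was at 65.8, 55.1, 63.1 and 64.0 CPM (counts scaled to the depth of the library) in WT-S, 63.2, 63.7, 72.5 and 88.6 in WT-A, 115, 121, 129 and 124 in TTP-S and 131, 129, 110.5 and 120.2 in TTP-A. Every library labelled TTP lay above every library labelled WT. WT-A 3 and WT-A 4 stood apart from the rest: across genes, their deviation from the median library rose with the GC content of the mRNA (Spearman rho 0.72 and 0.75, against a size of 0.30 or less in the other 14). The GC content of the mRNA ran from 42.9% in Slc18a2 through 48.2% in Slc18a1, 51.3% in Ghrl, 53.6% in Hdc, 53.9% in Chgb, 56.0% in Sst and 56.1% in Cckbr to 58.4% in Chga, so the log2 differences of the 8 genes that rest on WT-A are given with all 16 libraries and with the 14 that leave these 2 out, and those of other genes over 14 where a call was lost or gained or where the size matters to the text. The 14 keep only 2 libraries of WT-A, WT-A 1 and WT-A 2. Those were the lowest of all 16 in Hdc, Chga and Chgb, so a value over 14 libraries rests on them for WT-A and is not a stronger test.

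Endocrine identity was present in every library. Set per length, as CPM per kb of mRNA, Ghrl had the highest level at a mean of 1406 over 16 libraries, followed by Sst at 481, Chga at 431, Chgb at 37.3, Hdc at 19.2, Slc18a2 at 7.31, Cckbr at 3.49 and Slc18a1 at 0.376. Neighbours in this order kept it in 16 of 16 libraries except for Sst and Chga, where Sst was above Chga in 14. Slc18a1 had 9 to 42 counts per library, which limits what could be seen of it, while Hdc had 537 to 1810 and Ghrl had 19110 to 36836. Gast, the gastrin gene of the antrum, had 0 to 7 counts per library, and both insulin genes Ins1 and Ins2 had 0 in every library.

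**Figure D1:**
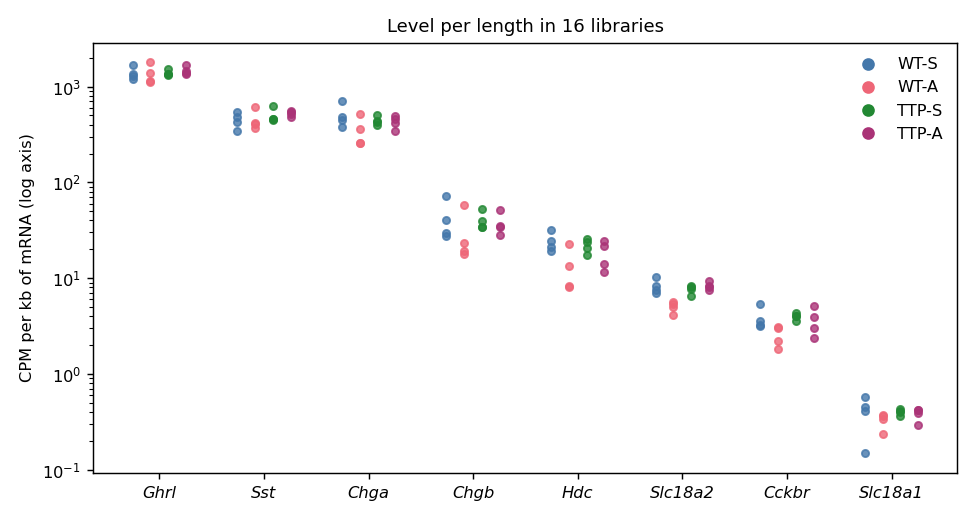
Level of each gene in CPM per kb of mRNA (vertical log axis), 1 point per library, coloured by group. Ghrl lies highest, at a mean of 1406, and Slc18a1 lowest, at 0.376, and only Sst and Chga trade places between libraries.

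In wild-type mice Slc18a2 and Hdc, the genes of histamine storage and synthesis, fell in A against S, Hdc by a call close to the threshold. Chga, Chgb and Cckbr had lower means without passing edgeR's test over 16 libraries, and Ghrl and Sst, the hormones of other endocrine cells, had nearly equal means. The DESeq2 Wald test over the same libraries called Chga and Cckbr as well. In bulk tissue, fewer cells of a type and less RNA per cell cannot be told apart. Differences are log2 fold changes from edgeR's quasi-likelihood test, with Benjamini-Hochberg adjustment over the 15385 genes tested, and a gene is called where the adjusted p is under 0.05.

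Slc18a2, which fills granules with histamine, was at 31.6, 38.5, 28.3 and 26.3 CPM in WT-S and at 21.3, 19.1, 15.6 and 20.2 CPM in WT-A. All 4 WT-A libraries lay below all 4 of WT-S. Its level was 0.611 times that of WT-S (log2 -0.71, SE 0.12, adjusted p = 0.00272), and over 14 libraries the log2 difference was -0.62 (adjusted p = 0.0133). It was called in all 8 fits that left out 1 library of the comparison, at -0.78 to -0.59.

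Hdc, the enzyme of histamine synthesis, was at 57.8, 76.8, 50.3 and 46.2 CPM in WT-S and at 19.4, 19.7, 31.7 and 54.5 CPM in WT-A. WT-A 4 lay inside the WT-S range and the other WT-A libraries lay below it. The log2 difference was -0.89 (SE 0.30, adjusted p = 0.0492), a level of 0.540 times that of WT-S, and over 14 libraries it was -1.56 (adjusted p = 0.00485). The call over 16 libraries was close to the threshold: it was made in 1 of 8 fits that left out a library, the fit without WT-A 4 (log2 -1.29, adjusted p = 0.00561), and in the other 7 the adjusted p ran up to 0.152, without WT-S 2, at log2 differences that stayed negative. It was also lost with no filter on low counts (adjusted p = 0.0515), in a fit of the groups compared alone (adjusted p = 0.129) and with a block for the replicate number (adjusted p = 0.0523), at -0.93 to -0.89.

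Chga, the granule protein of endocrine cells in general, was at 898, 1333, 853 and 720.4 CPM in WT-S and at 485, 484, 678 and 983 CPM in WT-A. WT-A 1, 2 and 3 lay below every WT-S library and WT-A 4 lay above 3 of them. The log2 difference was -0.53 (SE 0.21, adjusted p = 0.0882), and -0.97 over 14 libraries (adjusted p = 0.00928). It was called without WT-A 4 (log2 -0.79, adjusted p = 0.0130), and without WT-S 2 it was -0.32.

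Chgb, its partner in the granule, spread more widely, with 110.2, 198, 81.0 and 75.9 CPM in WT-S against 52.1, 49.4, 63.2 and 159.9 CPM in WT-A. The same WT-A 4 library stood among the high WT-S values. The log2 difference was -0.52 (SE 0.36, adjusted p = 0.308), and -1.19 over 14 libraries (adjusted p = 0.0423). It was called without WT-A 4 (log2 -1.08, adjusted p = 0.0249) and was -0.13 without WT-S 2.

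Cckbr, the gastrin receptor, was at 8.23, 13.9, 9.20 and 8.34 CPM in WT-S and at 5.70, 4.73, 7.69 and 7.96 CPM in WT-A. The groups did not overlap, with WT-A 4 just under WT-S 1. The log2 difference of -0.61 (SE 0.23) had an adjusted p of 0.0658, and over 14 libraries it was -0.93 (adjusted p = 0.0397). No fit that left out a single library called it, at -0.72 to -0.40, the last without WT-S 2.

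Ghrl, the hormone of X/A-like cells, was at 1069.7, 1515, 1217 and 1155 CPM in WT-S and at 989, 1028, 1249 and 1602 CPM in WT-A. The ranges overlapped almost fully, and the highest and the lowest values were both from WT-A. The log2 difference was -0.03 with a 95% interval of -0.32 to 0.27 (adjusted p = 0.906), and -0.29 over 14 libraries (adjusted p = 0.130).

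Sst, the hormone of D cells, was at 250.0, 389, 351 and 308 CPM in WT-S and at 269, 296, 299 and 438 CPM in WT-A. Again the groups overlapped, and WT-A 4 was the highest. The log2 difference had a 95% interval of -0.32 to 0.33 around a value close to 0 (adjusted p = 0.991). Slc18a1, the transporter of enterochromaffin cells, was between 0.461 and 1.78 CPM in both groups and differed by -0.27 (adjusted p = 0.520), and by -0.17 over 14 libraries. Over 14 libraries Sst differed by -0.20 (adjusted p = 0.442).

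**Figure D2:**
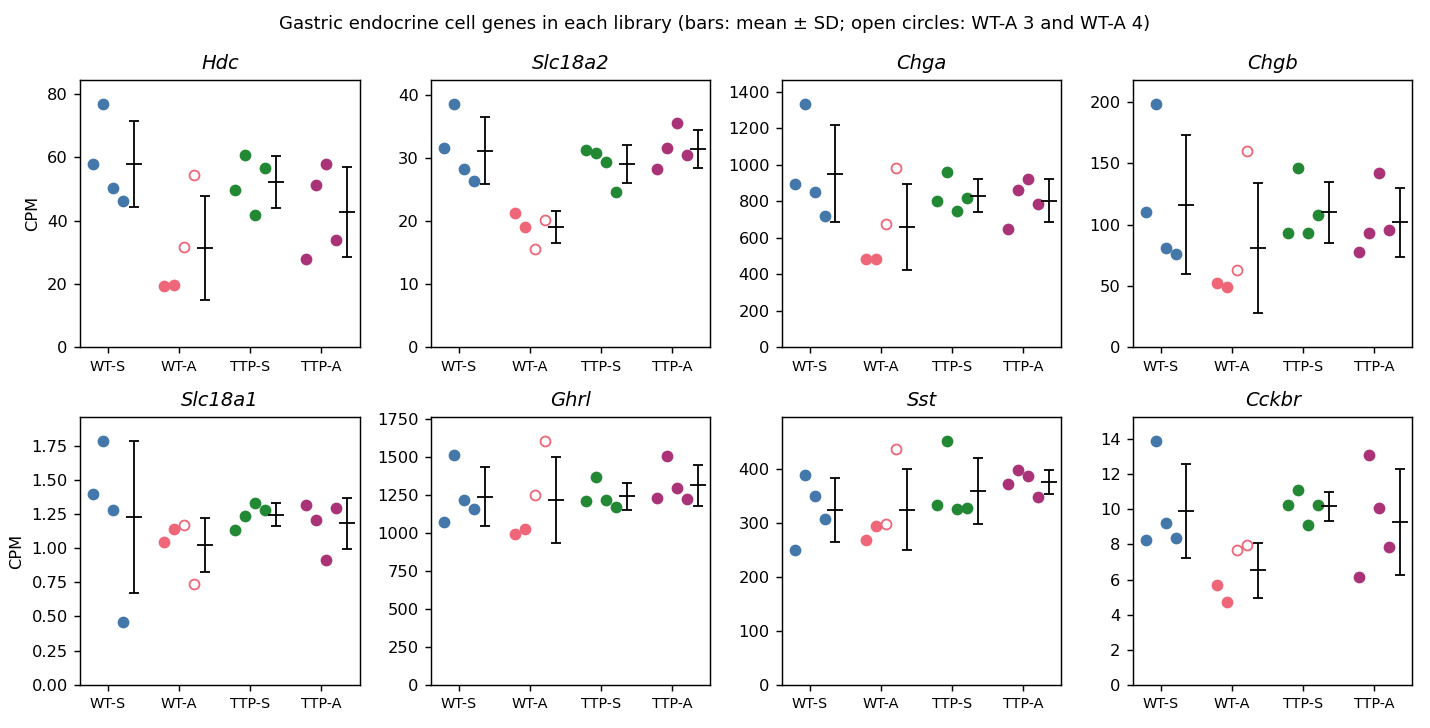
CPM of each of the 8 genes in each library by group, with bars for the mean ± SD (n = 4) and open circles for WT-A 3 and WT-A 4. WT-A lies below WT-S in all libraries for Slc18a2 and Cckbr, while for Hdc, Chga and Chgb WT-A 4 lies among the WT-S values.

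Counted over the 8 genes, 2 were lower in WT-A over 16 libraries and none higher. Among all genes 18.8% were called in this contrast and 8.99% were called lower, so a count of 2 is near the background and nothing particular to these genes is read from it. Over 14 libraries 5 of the 8 were lower (Hdc, Chga, Chgb, Slc18a2 and Cckbr), where 10.5% of all genes were called and 5.68% were called lower. That count rests on WT-A 1 and WT-A 2 alone for WT-A. The median log2 difference of the 8 was -0.53 against 0.01 for all genes tested, and it was -0.78 over 14 libraries. For 2 of the 8 the groups did not overlap, as for 17.7% of all genes.

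In TTPΔARE mice no difference between A and S was detected in the 8 genes. Slc18a2 was at 31.2, 30.8, 29.3 and 24.6 CPM in TTP-S and at 28.3, 31.5, 35.5 and 30.5 CPM in TTP-A. The groups overlapped, and TTP-A held the higher mean. Its log2 difference was 0.12 with a 95% interval of -0.14 to 0.37 (adjusted p = 0.751). Hdc was at 49.5, 60.8, 41.8 and 56.6 CPM in TTP-S and at 28.0, 51.3, 57.9 and 33.9 CPM in TTP-A. TTP-A 1 and TTP-A 4 lay below all TTP-S libraries and the other 2 lay within their range. The log2 difference of Hdc was -0.29 with a 95% interval of -0.92 to 0.34 (adjusted p = 0.742). That interval holds the WT difference over 16 libraries, -0.89, and not the one over 14, -1.56, but it leaves out the error of the WT values. The genotypes are compared by the interaction below, which was not called for Hdc.

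The remaining genes of this contrast had values near 0. Chga ranged from 746 to 959.9 CPM in TTP-S and from 649.6 to 923 CPM in TTP-A (log2 -0.05, interval -0.50 to 0.40), and Chgb from 92.9 to 146 and from 77.4 to 142 CPM (log2 -0.11, interval -0.88 to 0.66). Cckbr was at 10.2, 11.1, 9.09 and 10.2 CPM in TTP-S and at 6.13, 13.1, 10.1 and 7.83 CPM in TTP-A, so TTP-A spanned a wider range on both sides (log2 -0.13). Ghrl (1170.2 to 1370.0 CPM in TTP-S, 1221 to 1509 CPM in TTP-A) differed by 0.08 with an interval of -0.21 to 0.37. Sst (325 to 452 and 348 to 399.7 CPM) differed by 0.07 with an interval of -0.26 to 0.39, and Slc18a1 (1.13 to 1.33 and 0.912 to 1.32 CPM) by -0.07. By edgeR's quasi-likelihood test 0 of 8 were called, beside 2.90% of all genes (6.33% over 14 libraries), 0 had an unadjusted p under 0.05, and the DESeq2 Wald test called 0.

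Between the genotypes in condition S no difference was detected in the 8 genes either. Their log2 differences, TTP-S minus WT-S, ran from -0.19 for Chga to 0.15 for Sst, with 4 positive and 4 negative and a median of -0.04. Hdc differed by -0.15 (interval -0.77 to 0.48), Slc18a2 by -0.10 (interval -0.36 to 0.15) and Cckbr by 0.03 (interval -0.44 to 0.50). edgeR called 0 of 8 beside 0.0325% of all genes (0.422% over 14 libraries), 0 had an unadjusted p under 0.05, and the DESeq2 Wald test called 0.

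In condition A, Slc18a2 was higher in TTPΔARE mice. All 4 TTP-A libraries (28.3 to 35.5 CPM) lay above all 4 WT-A libraries (15.6 to 21.3 CPM), and TTP-A lay within the range of WT-S. Its level was 1.65 times that of WT-A (log2 0.72, SE 0.12, adjusted p = 0.0111), and over 14 libraries the log2 difference was 0.63 (adjusted p = 0.0340). It was called in all 8 fits that left out a library (0.64 to 0.78, adjusted p up to 0.0439) and was not called in a fit of these 2 groups alone (log2 0.72, adjusted p = 0.0565). This contrast and the one between WT-A and WT-S use the same WT-A libraries, so a low value there enters both.

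The other 7 genes also had positive values in TTP-A minus WT-A, and none was called. Hdc had a mean of 42.8 ± 14.1 CPM in TTP-A and 31.3 ± 16.5 CPM in WT-A (SD, n = 4 each), a log2 difference of 0.45 (adjusted p = 0.333) that was 1.12 over 14 libraries (adjusted p = 0.0502). Cckbr differed by 0.51 (adjusted p = 0.158), Chgb by 0.33, Chga by 0.29, Sst by 0.21, Slc18a1 by 0.20 and Ghrl by 0.11. Over 14 libraries the values were larger for most of them, at 1.002 for Chgb, 0.83 for Cckbr, 0.73 for Chga (adjusted p = 0.0674), 0.41 for Sst and 0.38 for Ghrl against 0.11 for Slc18a1, with none of these called. One of 8 was called beside 5.17% of all genes (1.81% over 14 libraries), the median was 0.31 (0.68 over 14 libraries) against -0.0033 for all genes, and for 1 of 8 the groups did not overlap, as for 12.2% of all genes.

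Whether the response to A differed between the genotypes was tested as an interaction, (TTP-A minus TTP-S) minus (WT-A minus WT-S). No gene of the 8 was called by edgeR. Slc18a2 came closest, at a log2 value of 0.83 (SE 0.17, 95% interval 0.46 to 1.19, adjusted p = 0.0808), and 0.74 over 14 libraries (adjusted p = 0.107). It had an unadjusted p of 0.00021, the only 1 of the 8 under 0.05, and the DESeq2 Wald test called it (0.83, adjusted p = 0.00287), as did 1 of 16 edgeR fits that left out a library, the one without WT-A 1 (0.88, adjusted p = 0.0342). The values of the others ran from 0.06 for Sst to 0.60 for Hdc (adjusted p = 0.483), and all 8 were positive, with a median of 0.45. Over 14 libraries the median was 0.77, with Hdc at 1.27 (adjusted p = 0.139), Chgb at 1.08, Chga at 0.92, Cckbr at 0.80, Ghrl at 0.37, Sst at 0.26 and Slc18a1 at 0.11, none of them called. Over 16 libraries 0.0585% of all genes were called (0.286% over 14 libraries). A call in WT mice without one in TTPΔARE mice is thus not shown by edgeR to be a difference between them for Hdc or Slc18a2.

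**Figure D3:**
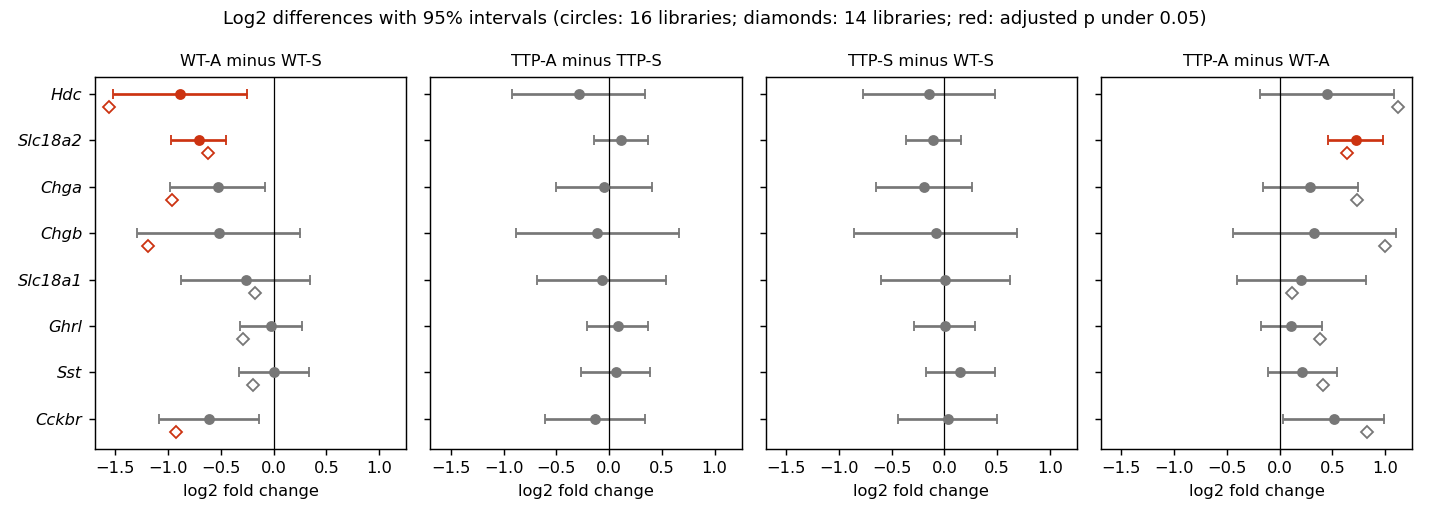
Log2 fold changes of the 8 genes in 4 contrasts, with circles and 95% intervals for 16 libraries, diamonds for 14 libraries in the contrasts that use WT-A, and red for an adjusted p under 0.05. Slc18a2 lies at -0.71 in WT-A minus WT-S and at 0.72 in TTP-A minus WT-A, and no gene is red in the 2 middle panels.

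Among themselves, most of the 8 genes varied together, Slc18a1 did so least, and the values of Slc18a2 turned on WT-A 3 and WT-A 4. As a description over 16 libraries that share their depth and scaling, log2 CPM of Hdc and Chga had a Pearson r of 0.94, Chga and Chgb 0.94, and Hdc and Cckbr 0.88, and Ghrl and Sst had 0.86. After removal of the group means these were 0.94, 0.95, 0.83 and 0.87. Slc18a2 went with Hdc at 0.62, with Chga at 0.63, with Chgb at 0.61 and with Ghrl at 0.29. After removal of the group means these were lower, at 0.31, 0.43, 0.54 and 0.27, and over 14 libraries they were 0.80, 0.90, 0.87 and 0.77. Slc18a1 went with Hdc at 0.08, and at 0.16 over 14 libraries. Over 14 libraries Hdc and Chga had 0.94, Chga and Chgb 0.95, Hdc and Cckbr 0.91, Ghrl and Sst 0.86, and Hdc and Ghrl 0.68. WT-A 3 and WT-A 4 had more Hdc than WT-A 1 and WT-A 2 and no more Slc18a2 than the first of them. The hormones were closer to Hdc and Chga within groups than over all libraries: Hdc and Ghrl had 0.64 and, within groups, 0.83, Hdc and Sst had 0.49 and 0.67, and Chga and Ghrl had 0.76 and 0.89. Without WT-A 1 and WT-A 2, the libraries farthest out in Hdc, r was 0.87 for Hdc with Chga and 0.47 for Hdc with Slc18a2. It was then 0.34 for Hdc with Ghrl and 0.25 for Hdc with Sst.

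**Figure D4:**
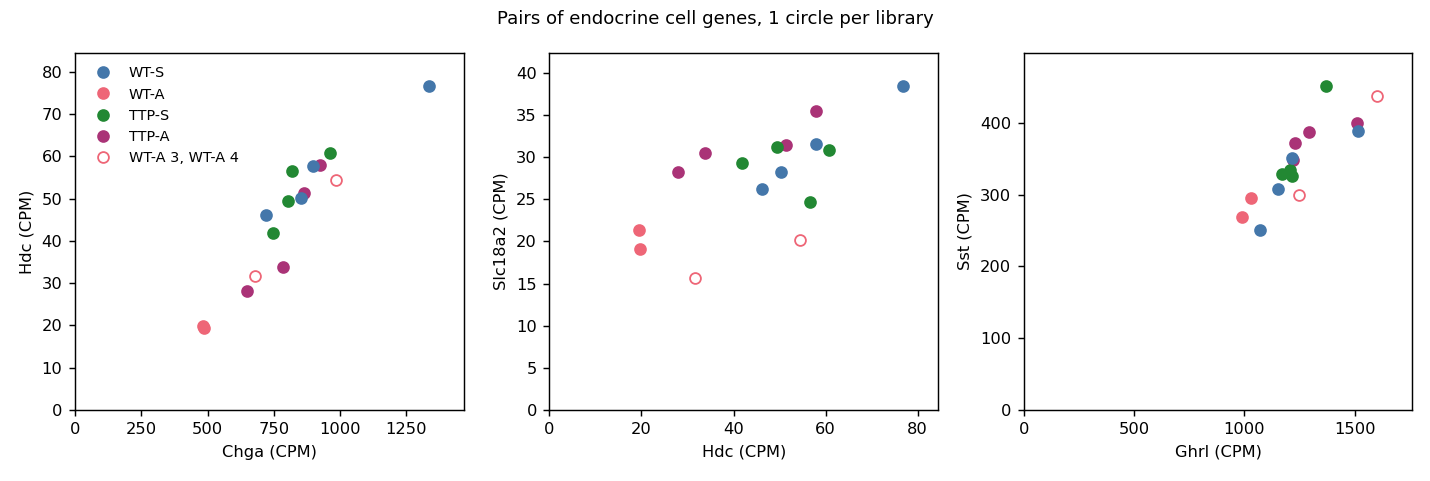
CPM of pairs of genes, 1 circle per library, coloured by group, with WT-A 3 and WT-A 4 open. Hdc and Chga rise together in every group (r = 0.94 on log2 CPM), while Slc18a2 in WT-A lies between 15.6 and 21.3 CPM, and its r with Hdc is 0.62 over 16 libraries and 0.80 without the open circles.

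Ratios within a library set the genes side by side at equal depth. Hdc counts were 5.76% to 6.44% of Chga counts in WT-S, 3.99% to 5.55% in WT-A, 5.61% to 6.91% in TTP-S and 4.31% to 6.27% in TTP-A. Every WT-A library was thus below every WT-S and TTP-S library. Slc18a2 counts were 50.2% to 56.8% of Hdc counts in WT-S and 110%, 96.9%, 49.2% and 37.0% in WT-A 1 to 4, so that in the first 2 of these libraries the transporter was lower by less than the enzyme was. Sst counts were 23.4% to 28.9% of Ghrl counts in WT-S and 23.9% to 28.8% in WT-A, which overlapped. These ratios were not tested.

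By the highest Pearson r of log2 CPM over 16 libraries, the genes most like Hdc were Pappa2 (0.96), Mccc2 (0.95) and the synaptic vesicle gene Syp (0.94). Pappa2 was also the most like Chga (0.97). Those most like Chgb, besides Chga, were Arhgef37 (0.93) and the granule membrane gene Ptprn (0.91). Among the 3 genes most like Slc18a2 were Gabra4 (0.93) and Rasgrp3 (0.93), which were 0.73 and 0.78 within groups. Cckbr was most like Slc26a9 (0.93), a chloride transporter of the gastric epithelium, Myo7a (0.93) and Gga2 (0.90). Ghrl was most like the RNA-binding gene Celf3 (0.90), Hspa12b (0.88) and Pisd (0.87), and Sst most like Ubqln2 (0.92), Celf3 (0.87) and Ghrl (0.86). For Slc18a1, whose counts were low, the highest were Tmc3 and C7 at 0.77 and Luzp2 at 0.76. Over 14 libraries the r of these genes ran from 0.74 for Luzp2 to 0.97 for Pappa2 with Chga.

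Other genes of endocrine cells were read from lists, in WT-A minus WT-S unless another contrast is named. The shares to set beside their counts are the 18.8% of all genes that were called in this contrast and the 8.99% called lower (10.5% and 5.68% over 14 libraries), and with lists this short nothing particular to a list is read from its count. Of 18 tested genes of the secretory granule and of prohormone processing, 3 were lower and none higher, with a median of -0.18 against 0.01 for all genes. They were Pcsk1, the prohormone convertase that also cuts proghrelin (log2 -0.63), the secretogranin Scg3 (-0.40) and the granule membrane gene Ptprn2 (-0.18), the last named after its values were seen, and leaving out 1 library ended the call in 6, 5 and 1 of 8 fits. Over 14 libraries 5 were lower, without Pcsk1 (-0.82, adjusted p = 0.0504). In TTP-A minus WT-A, where 5.17% of all genes were called (1.81% over 14 libraries), Snap25 (0.56), Scg3 (0.47) and Syt13 (0.45) were higher, and all 3 calls were lost in 4 or 5 of 8 such fits and were made over 14 libraries.

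Of 11 tested transcription factors of endocrine cells 1 was lower, Isl1. It was at 16.7, 20.2, 21.2 and 22.3 CPM in WT-S and at 15.7, 14.8, 13.3 and 13.7 CPM in WT-A. The groups did not overlap, and the log2 difference of -0.48 (adjusted p = 0.00628) was called in all 8 fits without a library and, over 14 libraries, at -0.40 (adjusted p = 0.0490). Neurog3, which starts the endocrine fate, had 0 to 5 counts per library and was not tested.

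Around histamine, 6 of 11 genes could be tested. The oxidases Maob (-0.66) and Maoa (-0.51), which act on products of histamine breakdown, and the parietal cell receptor Hrh2 (-0.29) were lower in WT-A, and the uptake transporter Slc22a3 was higher (1.19), at under 1 CPM. The call of Slc22a3 was lost over 14 libraries (0.63, adjusted p = 0.368), as was that of Maoa (-0.41, adjusted p = 0.153), and without WT-S 2 those of Maob (adjusted p = 0.0602) and Hrh2 (adjusted p = 0.0589) were lost. Hnmt, which methylates histamine, differed by -0.56 (adjusted p = 0.0715), and by -0.25 over 14 libraries. Hrh2 was higher in TTP-A than in WT-A (0.26, adjusted p = 0.0478), a call kept in 1 of 8 fits without a library and made over 14 libraries (0.35, adjusted p = 0.0402).

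Although Ghrl was not called, 4 of 5 tested genes of the list of ghrelin acylation and signalling were lower in WT-A, Pcsk1 among them. These are not markers of ghrelin cells, and a change in ghrelin cells is not read from them. Nucb2, the precursor of nesfatin, was at 67.1, 74.3, 70.7 and 65.0 CPM in WT-S and at 38.1, 37.4, 28.3 and 35.3 CPM in WT-A. All WT-A libraries lay below all WT-S libraries (log2 -0.99, adjusted p = 0.000246, and -0.87 over 14 libraries, adjusted p = 0.00141). In TTPΔARE mice Nucb2 was at 63.4, 65.0, 55.7 and 56.0 CPM in TTP-S and at 49.4, 66.0, 69.2 and 55.4 CPM in TTP-A, where it overlapped and was not called. Over 16 libraries it was the only gene of all the lists with a called interaction (log2 0.99, adjusted p = 0.0284, lost in 7 of 16 fits without a library), and it was higher in TTP-A than in WT-A (0.79, adjusted p = 0.00287). Over 14 libraries the interaction was 0.87 (adjusted p = 0.0201), where the chief cell genes Bhlha15 (1.25, adjusted p = 0.0102) and Gif (0.94, adjusted p = 0.0238) were called as well, and the difference of Nucb2 between TTP-A and WT-A was 0.67 (adjusted p = 0.0137).

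Mchr1, a receptor for melanin-concentrating hormone, was lower in A in both genotypes. Its log2 difference was -1.58 in WT mice with an adjusted p of 0.00717 and -2.14 in TTPΔARE mice with one of 0.00488, from 5 to 80 counts per library, and the groups did not overlap in either. Over 14 libraries it was -1.50 in WT mice (adjusted p = 0.0208). Acsl1, which makes fatty acyl-CoA, was lower in WT-A (-0.39, adjusted p = 0.00722) and in TTP-A (-0.33, adjusted p = 0.0483, lost in 7 of 8 fits without a library). Mboat4, the enzyme that acylates ghrelin, differed by -0.48 (adjusted p = 0.271), and by -1.10 over 14 libraries (adjusted p = 0.0114). The receptor Ghsr had 0 to 3 counts per library.

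In the lists of D cells and gastrin, 1 of 4 and 2 of 6 tested genes were called. Of 4 tested somatostatin genes the receptor Sstr2 was lower (-0.45, lost in 3 of 8 fits without a library), and Hhex, a transcription factor of D cells, differed by 0.41 (adjusted p = 0.0602) and was higher over 14 libraries (0.59, adjusted p = 0.0254). Of 6 tested genes of the gastrin axis, the receptor Cckar was lower (-0.45, lost over 14 libraries at adjusted p = 0.0873) and Reg1 was higher (2.23, lost in 3 of 8 fits), at a mean of 0.969 CPM in WT-A. None of 4 tested genes of the serotonin cell list was called in this contrast, and none of 5 of the list of other gut hormones and antral markers. Tph1, the serotonin enzyme of enterochromaffin and mast cells, was at 3.35 ± 0.273 CPM in TTP-S against 8.49 ± 2.04 CPM in TTP-A (log2 1.34, adjusted p = 0.0702, and 0.0424 over 14 libraries). Gcg, the glucagon precursor gene, was higher in TTP-A than in WT-A (0.68, adjusted p = 0.0406, and 0.124 over 14 libraries).

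**Figure D5:**
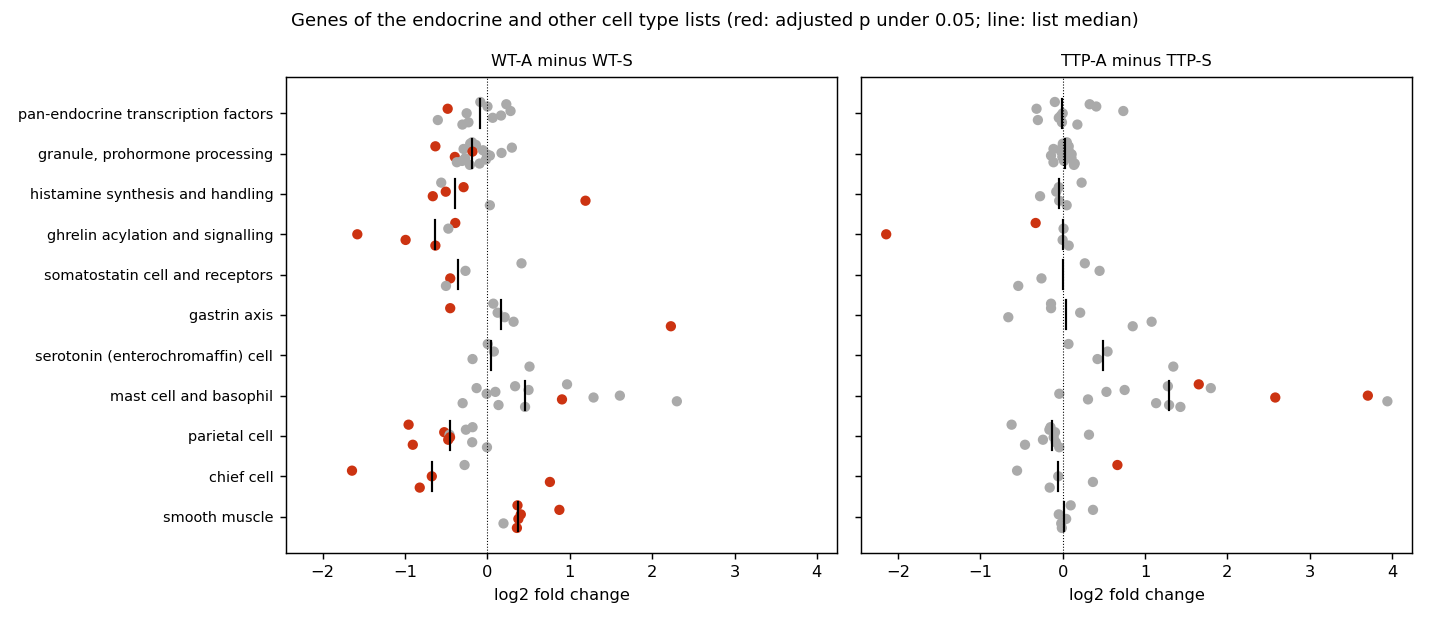
Log2 fold changes of the tested genes of each list in WT-A minus WT-S (left) and TTP-A minus TTP-S (right), 1 point per gene, with a line at the list median and red for an adjusted p under 0.05. On the left, 4 of 5 genes of the ghrelin acylation and signalling list, which does not hold Ghrl, are red and below 0. On the right no granule, histamine or transcription factor gene is red.

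Markers of the other cells that could carry these transcripts were set beside Hdc, Slc18a2 and Cckbr. Of 13 mast cell and basophil genes, 1 was higher in WT-A (Mcpt4, log2 0.90) and 3 were higher in TTP-A than in TTP-S, a contrast in which 2.90% of all genes were called (Mcpt1 at 3.71, Mcpt2 at 2.58 and Cma1 at 1.65), and each of these calls was lost in 3 or more of 8 fits without a library. Their summed level was 161 to 528 CPM in WT-S, 255 to 726 in WT-A, 162 to 176 in TTP-S and 218 to 570.1 in TTP-A. The sum was highest in WT-A 1 to 3, where Hdc was at 19.4 to 31.7 CPM. Cpa3, a defining mast cell protease, was at 15.7 ± 11.2 CPM in WT-S against 19.7 ± 9.73 CPM in WT-A, and no marker of the list was at 0 in all libraries. The part of mast cells in the levels of Hdc and Slc18a2 was not tested.

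Of 12 neuron genes, Elavl4, an RNA-binding protein of neurons and endocrine cells, was lower in WT-A (-0.84, adjusted p = 0.00886) and higher in TTP-A than in WT-A (1.02, adjusted p = 0.0126), and over 14 libraries both values were of similar size without being called (-0.77, adjusted p = 0.0530, and 0.94, adjusted p = 0.0578). The summed level of the list was 41.5 to 52.0 CPM in WT-S against 37.0 to 57.4 CPM in WT-A, and Elavl3 was at a mean of 0.937 and 0.720 CPM. Of 10 parietal cell genes, 5 were lower in WT-A, among them Aqp4 (-0.96), Slc26a7 (-0.91) and Esrrg (-0.53), while the proton pump gene Atp4a differed by -0.18 (adjusted p = 0.215). Over 14 libraries 7 were lower, with Atp4a (-0.36, adjusted p = 0.0259) and without Slc26a7 (-0.77, adjusted p = 0.0533). The summed level of this list was 19105 to 22868 CPM in WT-S against 15807 to 23552 CPM in WT-A, highest in WT-A 4, where Hdc, Chga and Chgb were also high.

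Summed RNA of other cell type lists also differed in range between the groups. Chief cell genes summed to 78569 to 153390 CPM in WT-S and to 48992 to 103711 CPM in WT-A, where 3 of 5 were lower and Pga5 was higher, and the sum was lowest in WT-A 1 and WT-A 2, as was Hdc. Over 14 libraries 4 chief cell genes were lower and 1 was higher. Smooth muscle genes summed to 6576 to 7513 CPM in WT-S against 7822 to 9476 CPM in WT-A, and 5 of 6 were higher in WT-A, against 1 of 6 over 14 libraries. Squamous genes of the neighbouring forestomach ranged from 1.48 to 217 CPM in WT-S and from 46.2 to 864 CPM in WT-A. Surface mucous genes summed to 52679 to 60554 CPM in WT-S against 36431 to 51636 CPM in WT-A, and to 55845 to 60085 CPM in TTP-S against 29828 to 52909 CPM in TTP-A, with no overlap between S and A in either genotype, while 0 of 4 were called in WT mice (1 over 14 libraries) and 1 of 4 was lower in TTPΔARE mice. The part of these shifts in the values of the 8 genes was not tested. All 6 glucocorticoid-responsive genes were lower in A in both genotypes over 16 libraries (5 of 6 in WT mice over 14), beside 18.8% of all genes called in WT and 2.90% in TTPΔARE mice, among them Per1 at -1.69 in WT and -1.58 in TTPΔARE mice, and their sums did not overlap between A and S.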

How the data were processed

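RNA sequencing counts of 16 mouse stomach libraries were analysed, with groups and replicate numbers taken from the sample titles. Whole-number read counts per gene symbol, in 1 table, are what the authors deposited. Per the submitters' processing notes, STAR 2.7.0f, featureCounts, Subread 1.6.4, DESeq2 and the build mm10 were used. Strandedness, annotation and filters are not given in the sources used here, so overlapping or antisense genes may share reads. No count came from molecular identifiers, and no batch is named in the labels.

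From the counts, genes were filtered with filterByExpr of edgeR 4.0.16 in R 4.3.3, scaled by TMM and fitted in all 16 libraries with edgeR's quasi-likelihood functions, each group having its own mean. Benjamini-Hochberg adjustment ran over the 15385 genes tested. Correlations used log2 CPM with a prior count of 2. Gene models were those of GENCODE vM21 on GRCm38, the build of mm10. The GC check used 11493 genes with a mean log2 CPM over 2. Within groups, chi-square over its degrees of freedom was 4.74 to 93.8 in 24 pairs of libraries, and no pair was treated as a duplicate. Alternatives were DESeq2 1.42.0 size factors and its Wald test, no filter on low counts, fits restricted to the groups compared, a block for the replicate number, 14 libraries, and leaving out each library in turn.

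The 8 genes and 17 other lists were chosen from general knowledge with earlier results of these data known. Named genes are the 8, Zfp36, the first gene of each list with at most 4 of its called genes by size of change, and the 3 genes most correlated with each of the 8. Not every gene so chosen is described, and Ghsr, Ins2, Gif, Kit and Ptprn2 were named outside this rule, after their values were seen.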

Additional observations from a re-analysis of the deposited data

Results flagged for a closer look

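Each of the 8 genes was checked in each of the 4 groups, 32 groups of 4 libraries in all, for a library far from the other 3, a check that chance fails in about 1 in 20 groups. It found 2. Chgb was at 159.91 CPM in WT-A 4, while the other WT-A libraries were at 49.4 to 63.2 CPM. Sst was at 451.791 CPM in TTP-S 2, while the other TTP-S libraries were at 325 to 334 CPM.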

How the results depend on the processing

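With 4 libraries per group, calls near the threshold moved with the processing. Of 616 values of the 8 genes under the alternatives, 34 turned sign, all of them uncalled in both fits. In WT-A minus WT-S, where 2 genes were called, 5 were called over 14 libraries, 4 by the DESeq2 Wald test, 1 with no filter on low counts, 1 in a fit restricted to the groups compared, 1 with the replicate block, and 1 to 4 when single libraries were left out. Slc18a2 was called in each of these fits, and the gene lost with no filter, in the restricted fit and with the block was Hdc. In TTP-A minus WT-A, 0 were called in a fit of only the groups compared. In the interaction, 1 was called by the DESeq2 Wald test, and 0 to 1 when single libraries were left out. The replicate block rests on numbers that do not pair the libraries: deviations of same-numbered libraries from their group means correlated at -0.51 to 0.33 (median -0.09), over 0.1 in 7 of 24 pairs, and the block changed no other count. Sst in WT-A minus WT-S was -0.20 over 14 libraries, -0.0026 with DESeq2 size factors and -0.0024 by the DESeq2 Wald test, and without single libraries it ran from -0.17 to 0.10. The cause of these turns was not tested. Without single libraries, log2 values in TTP-A minus TTP-S ran from -0.34 to 0.023 for Cckbr, -0.12 to 0.042 for Chga, -0.31 to 0.056 for Chgb and -0.13 to 0.035 for Slc18a1. In TTP-S minus WT-S they ran from -0.045 to 0.24 for Cckbr, -0.30 to 0.014 for Chga, -0.25 to 0.31 for Chgb, -0.061 to 0.11 for Ghrl, -0.24 to 0.022 for Hdc, -0.26 to 0.25 for Slc18a1 and -0.18 to 0.015 for Slc18a2. Ghrl in WT-A minus WT-S ran from -0.19 to 0.088, and in the interaction the ranges were -0.0069 to 0.27 for Ghrl, -0.046 to 0.46 for Slc18a1 and -0.039 to 0.24 for Sst. The counts of Slc18a1, 9 to 42 per library, limit what could be seen of it.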
